A study of Mus musculus with 7 samples.

Results

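The EphB receptors and ephrin-B ligands were examined in the dorsal midbrain of neonatal mice with and without Brn3b, a POU-domain transcription factor encoded by *Pou4f2*. The 8 genes were taken by symbol: the receptors *Ephb1*, *Ephb2*, *Ephb3*, *Ephb4* and *Ephb6* and the ligands *Efnb1*, *Efnb2* and *Efnb3*. They are 8 of the 52636 genes counted, and all 8 were among the 21817 that passed the filter on low counts. Poly(A) RNA was sequenced from 7 libraries, each from the dorsal midbrain of a mouse at postnatal day 2 to 4 (P2 to P4). The 3 controls (A2 and A6 at P4, A4 at P3) were Heterozygote, that is *Brn3b* flox/+ with En1-Cre. The 4 conditional knockouts (cKO; B1 and B8 at P4, B7 and B9 at P2) were Homozygote, that is *Brn3b* flox/- with En1-Cre. Every mouse therefore carried En1-Cre, which recombines in the midbrain and anterior hindbrain, and 1 floxed allele that turns into a reporter allele on recombination. The groups differed in the other allele, and P2 mice were found in the cKO group only, so genotype and this age cannot be fully told apart. The study asked which transcripts change when Brn3b is lost from the midbrain.

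EphB receptors are receptor tyrosine kinases, and ephrin-B ligands are transmembrane proteins, so that contact between cells can signal into the receptor-bearing cell (forward) and into the ligand-bearing cell (reverse). In the superior colliculus, the dorsal midbrain structure that receives retinal axons, EphB and ephrin-B molecules are known for guiding axon branches along the mediolateral axis, while EphA and ephrin-A molecules act along the anteroposterior axis. Outside axon guidance, ephrin-B2 marks arterial and EphB4 venous endothelium.

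Promoter sequences are shown for *Ephb1*, *Ephb2* and *Ephb6*, the 3 receptors whose levels set the P2 cKO mice apart in the values that follow. Each run holds 250 bases before and 50 after the RefSeq transcription start on GRCm38.p6, read 5′ to 3′ on the strand of the gene, with CG dinucleotides in capitals. They lie at chr9:102354644-102354943 (minus strand, *Ephb1*), chr4:136835963-136836262 (minus strand, *Ephb2*) and chr6:41605261-41605560 (plus strand, *Ephb6*).
Ephb1: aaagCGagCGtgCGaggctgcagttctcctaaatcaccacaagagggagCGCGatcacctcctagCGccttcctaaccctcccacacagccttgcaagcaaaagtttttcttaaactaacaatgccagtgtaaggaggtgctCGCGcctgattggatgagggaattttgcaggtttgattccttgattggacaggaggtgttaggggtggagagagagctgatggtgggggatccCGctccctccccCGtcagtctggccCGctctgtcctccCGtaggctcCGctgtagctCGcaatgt
Ephb2: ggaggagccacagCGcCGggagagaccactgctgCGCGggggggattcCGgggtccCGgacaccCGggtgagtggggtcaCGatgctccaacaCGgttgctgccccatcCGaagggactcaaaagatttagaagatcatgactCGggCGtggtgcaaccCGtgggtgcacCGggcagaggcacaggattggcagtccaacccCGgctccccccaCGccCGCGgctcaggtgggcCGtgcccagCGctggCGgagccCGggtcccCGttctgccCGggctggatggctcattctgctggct
Ephb6: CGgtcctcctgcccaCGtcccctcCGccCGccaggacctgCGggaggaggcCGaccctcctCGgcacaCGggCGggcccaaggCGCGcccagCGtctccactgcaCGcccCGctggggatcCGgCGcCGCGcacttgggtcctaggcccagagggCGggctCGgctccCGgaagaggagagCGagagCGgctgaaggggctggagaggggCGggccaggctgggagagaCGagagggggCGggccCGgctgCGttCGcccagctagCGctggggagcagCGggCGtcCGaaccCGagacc
The *Ephb1* promoter held 14 CG dinucleotides, the *Ephb2* promoter 24 and the *Ephb6* promoter 34, against a median of 7 over the 32851 promoters of the table. Of the 8 genes, 7 had a promoter in that table, and *Efnb3* was not in it. The letters TCATTAA, searched on both strands, occurred in 0 of these 7 windows and in 3.23% of all promoters.

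Depth ran from 23588248 to 87572085 counts on genes per library, and the least counted of the 8 genes, *Ephb4*, still had 310 counts in its lowest library. The deletion was visible in *Pou4f2* itself, which stood at 45.8 to 47.4 CPM (the count scaled to a common library size) in the controls and 9.65 to 11.6 CPM in the cKO mice (log2 fold change -2.16, SE 0.13, edgeR adjusted p = 5.66e-04). All 10 dorsal midbrain markers examined passed the filter and were above 1 CPM, whereas *Emx1* and *Tbr1* of the telencephalon and *Atoh1*, *Gabra6* and *Pcp2* of the cerebellum were below 1 CPM. A principal component analysis put B8 beside the controls along its leading axis (60.1% of the variance), although its *Pou4f2* level was that of the other cKO mice. Reads not assigned to a gene made up 31.0% to 33.1% in A4, B7 and B9 and 37.3% to 38.2% in the other 4 libraries. The comparison of the 8 genes is therefore also given without B8 and for the P2 and P4 cKO mice apart.

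Levels were first compared among the 8 genes as RPKM, which divides CPM by the exon length in kilobases, over all 7 mice. *Efnb3*, a ligand of the nervous system, was by far the most abundant at 76.3 ± 6.15 RPKM (SD, n = 7). *Ephb1*, a receptor with roles in retinal axon routing and branching, followed at 28.5 ± 4.68 RPKM. *Ephb6*, whose kinase domain lacks catalytic activity, reached 19.6 ± 4.18 RPKM.

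*Ephb2*, a kinase-active receptor of retinal branching and of synapse formation, stood at 13.2 ± 2.43 RPKM. Below these came *Efnb1*, an X-linked ligand known from craniofrontonasal syndrome, at 5.69 ± 0.80 RPKM, and *Efnb2* at 4.76 ± 0.83 RPKM. *Ephb3*, which often acts together with *Ephb2*, had 4.56 ± 0.46 RPKM and *Ephb4* had 2.85 ± 0.31 RPKM. *Efnb3* lay at percentile 97.7 of all tested genes and *Ephb4* at percentile 49.1.

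**Figure D1:**
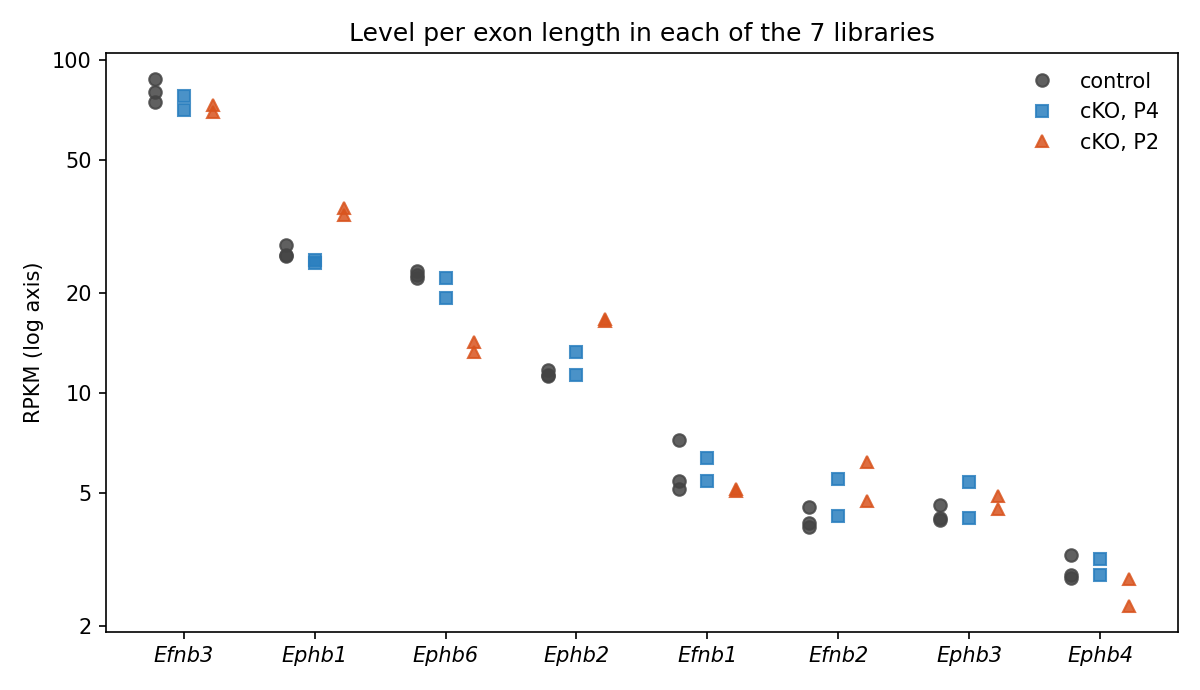
RPKM of each gene in each library on a log axis, with controls as circles, P4 cKO mice as squares and P2 cKO mice as triangles. *Efnb3* ranks first and *Ephb4* last in each of the 7 libraries, while *Ephb6* lies above *Ephb2* in all mice but the 2 P2 cKO mice.

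The 7 neighbouring pairs in this order were tested by an exact sign-flip permutation test over the mice (two-sided, smallest possible p = 0.0156). *Efnb3* over *Ephb1*, *Ephb1* over *Ephb6*, *Ephb2* over *Efnb1* and *Ephb3* over *Ephb4* each held in 7 of 7 mice (exact p = 0.0156, adjusted over the 7 pairs p = 0.0273). *Ephb6* and *Ephb2* did not differ beyond their spread (higher in 5 of 7 mice, adjusted exact p = 0.0875), nor did *Efnb1* and *Efnb2* (adjusted exact p = 0.146) or *Efnb2* and *Ephb3* (adjusted exact p = 0.5). With the longest transcript in place of all exons as the length, *Efnb1* moved from rank 5 to rank 7. *Ephb1* shares exon sequence with the antisense gene *Gm26846* (4.08 to 11.7 CPM) and *Ephb4* with *Zan* on the other strand (3.07 to 6.59 CPM), and the strand setting of the counting is not given in the sources used here.

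Between the genotypes, none of the 8 genes passed an adjusted p of 0.05 in edgeR, where 0.00458% of all tested genes did. None passed in DESeq2 either, where 10.4% of the 19092 genes with an adjusted p did. At an unadjusted p under 0.05 the count in edgeR was 0 of 8, against 30.4% of all genes. Only *Ephb6* had no overlap between the 3 controls and the 4 cKO mice, against 14.0% of all genes, so neither share stood above the background. The median log2 fold change of the 8 genes was 0.02 and that of all tested genes 0.0025.

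Among the receptors, the widest difference was in *Ephb6* (ENSMUSG00000029869.7, chromosome 6, 41605482 to 41620509, plus strand of GRCm38). Its level was 83.7, 85.6 and 87.8 CPM in A2, A4 and A6, and 72.6, 53.7, 83.6 and 50.2 CPM in B1, B7, B8 and B9. All 4 cKO mice lay below the 3 controls, B8 by a margin smaller than the spread among the controls, and the P2 mice were far lower than the P4 mice. The log2 fold change was -0.40 (95% interval -0.81 to 0.02, edgeR adjusted p = 0.174), and the exact permutation p of 0.0571 is the smallest that 3 against 4 mice can give.

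*Ephb2* (ENSMUSG00000028664.14, chromosome 4, 136647539 to 136835988, minus strand) went the other way. Its level was 148, 143 and 142 CPM in A2, A4 and A6, and 167, 210, 143 and 207 CPM in B1, B7, B8 and B9. B8 fell within the control range, B1 lay just above it and the P2 mice well above it. The log2 fold change was 0.33 (95% interval -0.01 to 0.68, edgeR adjusted p = 0.176, exact permutation p = 0.171).

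*Ephb1* (ENSMUSG00000032537.15, chromosome 9, 101922128 to 102354693, minus strand) had 181, 195 and 181 CPM in A2, A4 and A6 and 175, 240, 172 and 252 CPM in B1, B7, B8 and B9. The P4 cKO mice lay below every control and the P2 cKO mice above every control. The log2 fold change over all mice, 0.18 (95% interval -0.19 to 0.55, edgeR adjusted p = 0.468), thus averaged over opposite deviations.

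*Ephb3* (ENSMUSG00000005958.14, chromosome 16, 21204755 to 21223305, plus strand) ranged from 27.5 to 30.6 CPM in the controls and from 27.9 to 35.9 CPM in the cKO mice (log2 fold change 0.14, 95% interval -0.17 to 0.45, edgeR adjusted p = 0.508). Here the highest value belonged to B1, a P4 mouse, and not to a P2 mouse. *Ephb4* (ENSMUSG00000029710.15, chromosome 5, 137350109 to 137378669, plus strand) ranged from 12.9 to 15.1 CPM and from 10.7 to 14.7 CPM (log2 fold change -0.10, 95% interval -0.47 to 0.27, edgeR adjusted p = 0.697).

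Of the ligands, *Efnb2* (ENSMUSG00000001300.16, chromosome 8, 8617434 to 8661242, minus strand) had the widest difference. Its level was 27.2, 27.8 and 31.1 CPM in A2, A4 and A6, and 37.9, 42.7, 29.3 and 32.5 CPM in B1, B7, B8 and B9. All but B8 exceeded the highest control, and here a P4 mouse, B1, stood above the P2 mouse B9. The log2 fold change was 0.31 (95% interval -0.05 to 0.67, edgeR adjusted p = 0.207, exact permutation p = 0.114).

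*Efnb3* (ENSMUSG00000003934.5, chromosome 11, 69554092 to 69560205, minus strand) ranged from 238 to 279 CPM in the controls and from 222 to 248 CPM in the cKO mice. All 4 cKO values lay below the control mean but only B1, B7 and B9 lay below the lowest control, for a log2 fold change of -0.15 (95% interval -0.41 to 0.11, edgeR adjusted p = 0.379). *Efnb1* (ENSMUSG00000031217.8, chromosome X, 99136130 to 99148991, plus strand) ranged from 17.7 to 24.9 CPM and from 17.6 to 22.1 CPM (log2 fold change -0.10, 95% interval -0.48 to 0.27, edgeR adjusted p = 0.685). The highest *Efnb1* value was that of A4, the P3 control, and without A4 the fold change was 0.06.

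Because *Efnb2* and *Ephb4* are also vascular, endothelial genes were read beside them. Across 12 endothelial markers the summed level was 230 to 324 CPM in the controls and 226 to 318 CPM in the cKO mice. For 6 arterial markers the ranges were 24.9 to 31.5 and 15.9 to 32.3 CPM, and for 5 venous markers 165 to 194 and 128 to 193 CPM, with *Bmx* of the first and *Lrg1* of the second below 1 CPM. The arterial sum was below every control in B1, B7 and B9 (20.9, 15.9 and 21.7 CPM) and above every control in B8 (32.3 CPM), and the lowest sum belonged to B7, the mouse with the highest *Efnb2*. Fewer cells of a type and less RNA per cell cannot be told apart in such tissue libraries.

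The other cell type lists were summed in the same way. Neuronal markers ranged from 5807 to 6550 CPM in the controls and from 5792 to 6526 CPM in the cKO mice. Their sum held opposite moves. *Map2* had 1045 to 1228 CPM in the controls and 1986, 2577 and 2366 CPM in B1, B7 and B9. *Tubb3* had 1519 to 2077 CPM in the controls and 1192, 1026 and 1026 CPM in these 3 mice. Without B8, 2 of the 7 neuronal markers passed in edgeR as higher and 3 as lower, against 23.7% and 23.1% of all genes. Markers of astrocytes and radial glia ranged from 2122 to 2424 CPM and from 1645 to 2192 CPM, lowest in B9 and B7. Markers of dividing cells (46.5 to 64.0 and 49.0 to 88.2 CPM) and of the oligodendrocyte lineage (374 to 429 and 319 to 443 CPM) overlapped between the groups, and the part of cell make-up in the receptor levels was not tested.

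The P2 cKO mice were then set against the 3 controls alone. In this comparison 4 of the 8 genes passed an adjusted p of 0.05 in edgeR, near the 46.9% of all genes that did. *Ephb6* was lower by a log2 fold change of -0.74 (SE 0.10, adjusted p = 1.38e-04), while *Ephb2* was higher by 0.51 (SE 0.09, adjusted p = 6.78e-04). *Ephb1* was higher by 0.39 (SE 0.09, adjusted p = 0.00411) and *Efnb2* by 0.37 (SE 0.14, adjusted p = 0.0472).

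Against the P4 cKO mice the same controls gave log2 fold changes of -0.13 for *Ephb6*, 0.11 for *Ephb2*, -0.09 for *Ephb1* and 0.23 for *Efnb2*. None of the 8 passed in edgeR, against 0.00476% of all genes, and 0 of 8 had an unadjusted p under 0.05, against 3.69% of all genes. Since the P2 mice were all cKO, these values cannot separate the effect of genotype at P2 from that of age. With age as a covariate the genotype difference was 0.00 for *Ephb1*, 0.20 for *Ephb2* and -0.26 for *Ephb6*. None of the 8 passed in that fit, where only 1 of all 21817 tested genes did.

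The P2 and P4 cKO mice, which share a genotype, were compared directly in a fit of 3 groups. *Ephb6* was lower at P2 by a log2 difference of -0.59 (95% interval -0.90 to -0.28), *Ephb1* higher by 0.50 (0.23 to 0.78) and *Ephb2* higher by 0.43 (0.13 to 0.72). In this contrast 3 of 8 genes had an unadjusted p under 0.05, against 25.0% of all genes. After adjustment 0 of 8 passed (edgeR adjusted p = 0.0996, 0.1 and 0.114 for these 3), as did 0.0% of all genes.

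The 2 mice at P4 were themselves unlike, since B1 differed from the controls in the direction of the P2 mice in *Ephb2*, *Ephb6* and *Efnb2*, whereas B8 lay within 0.04 of the control mean on the log2 scale in each of these genes. Without B8, edgeR passed 3 of 8 genes: *Ephb6* at -0.55 (adjusted p = 0.00602), *Ephb2* at 0.43 (adjusted p = 0.00728) and *Efnb2* at 0.39 (adjusted p = 0.0266). This share stood below the 46.7% of all genes that passed without B8. With all 7 mice and limma-voom sample weights, which gave B8 the lowest weight, the same 3 genes passed, against 48.5% of all genes.

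**Figure D2:**
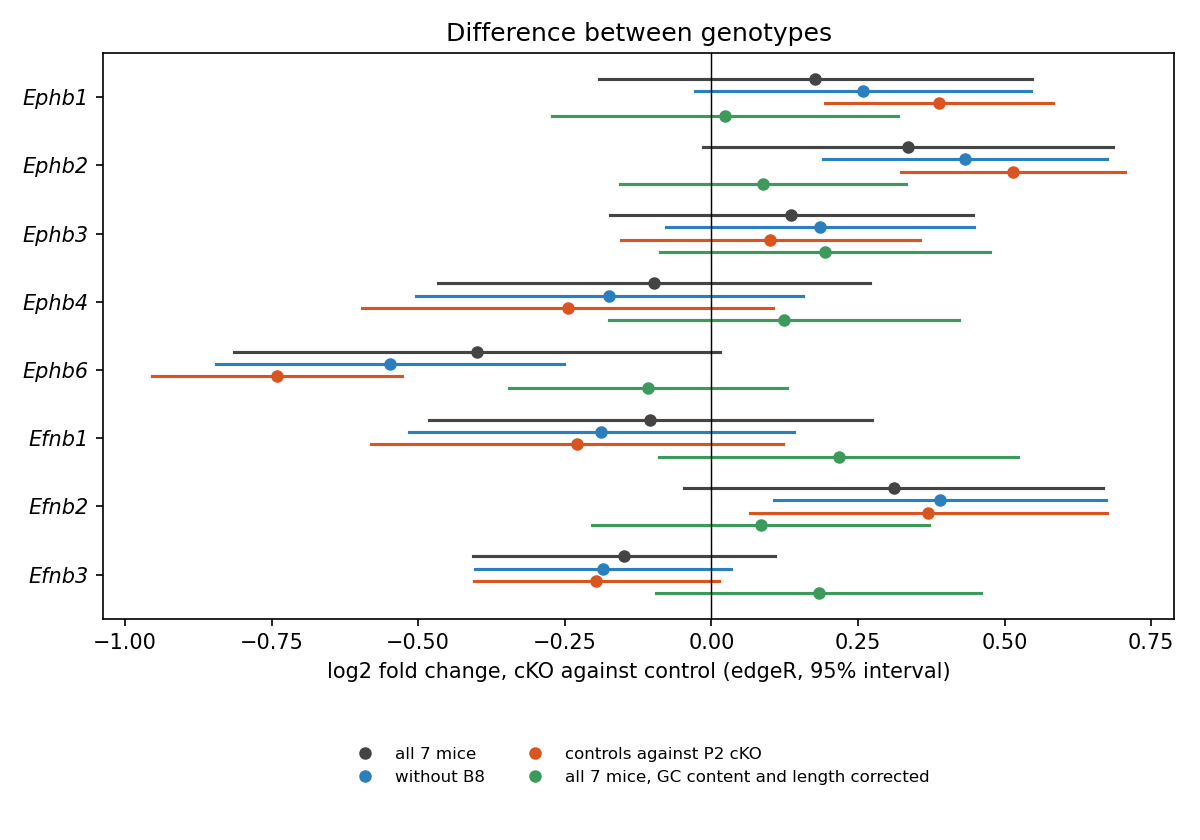
Log2 fold change of each gene, cKO against control, with its 95% interval in edgeR for 4 sets: all 7 mice, without B8, controls against the P2 cKO mice, and all 7 mice after correction for GC content and exon length. With all mice every interval reaches 0, *Ephb2*, *Ephb6* and *Efnb2* clear it without B8, and every interval reaches 0 after the correction.

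The receptors were next described as a pool, the sum of their RPKM. The pool was 66.7, 69.7 and 67.4 RPKM in A2, A4 and A6, and 65.8, 72.4, 65.4 and 73.0 RPKM in B1, B7, B8 and B9. *Ephb6* supplied 32.5% to 34.5% of it in the controls, 29.2% in B1, 33.9% in B8, 19.7% in B7 and 18.2% in B9. *Ephb1* supplied 38.4% to 39.9% in the controls and 47.4% and 49.3% in the P2 mice, with 38.1% in B1 and 37.6% in B8.

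The size of the pool thus varied less between mice than its make-up, and *Ephb6*, the catalytically inactive receptor, had its lowest shares in the P2 mice. The ratio of *Ephb2* to *Ephb6*, which does not depend on the scaling factor of a library, was 0.530, 0.500 and 0.483 in A2, A4 and A6 and 0.690, 1.17, 0.512 and 1.23 in B1, B7, B8 and B9. It was chosen after the values were seen and is a description. On the log2 scale the ratio lay 1.22 and 1.29 above the control mean in B7 and B9, and 0.36 and 0.46 above it after the correction for GC content and exon length given further on. The ligand pool was 84.8 to 98.8 RPKM in the controls and 79.8 to 88.5 RPKM in the cKO mice, and *Efnb3* made up 86.6% to 89.8% of it in every mouse.

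**Figure D3:**
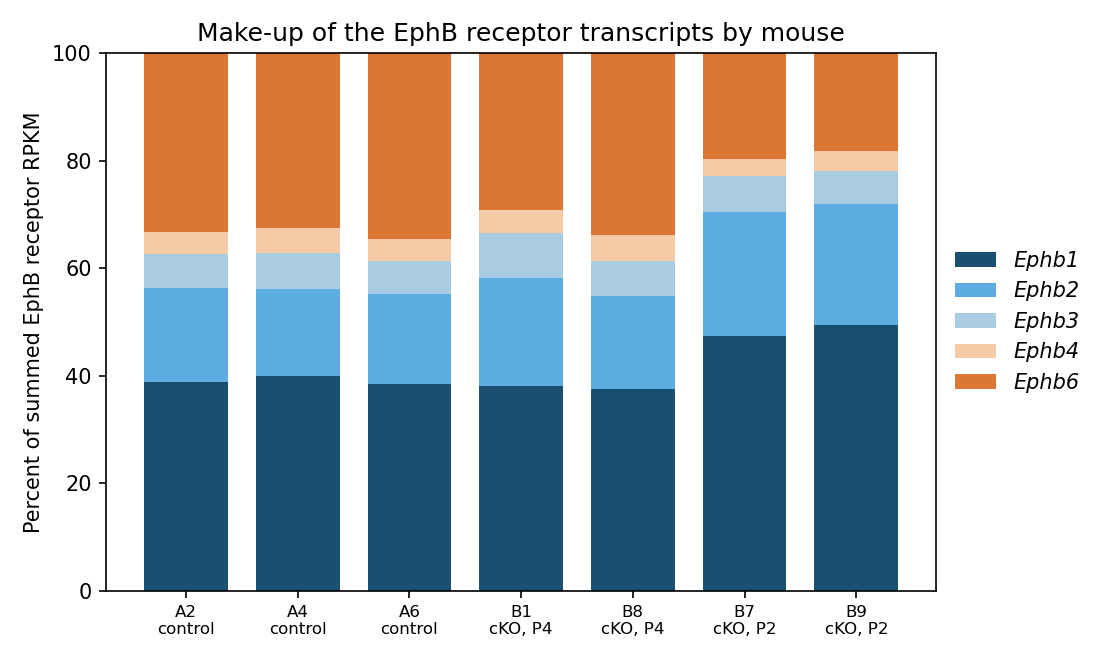
Stacked bars give the percent of the summed EphB receptor RPKM supplied by each receptor in each mouse, controls first, then P4 and P2 cKO mice. *Ephb6* supplies 32.5% to 34.5% in the controls and 19.7% and 18.2% in the 2 P2 mice, where *Ephb1* and *Ephb2* take larger shares.

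The direction of the fold changes sorted with the form of the transcripts. The 4 genes with the longest exon sequence, *Ephb2* (12608 bases), *Ephb1* (7002), *Efnb2* (6855) and *Ephb3* (6641), had fold changes above 0, and the 4 shorter ones, from *Ephb4* (4640 bases) to *Efnb3* (3183), had fold changes below 0. The same split held for GC content, which ran from 50.5% in *Efnb2* to 57.0% in *Ephb3* on the higher side and from 57.7% in *Efnb3* to 59.4% in *Ephb6* on the lower side. Across all 21775 genes with both measures, the fold change had a Spearman rho of 0.371 with exon length and -0.314 with GC content, a description across genes that share the 7 libraries.

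In the class of high GC content and middle length, which holds *Ephb4*, *Ephb6*, *Efnb1* and *Efnb3*, the median log2 fold change of all genes was -0.28, and 21.4% of them were above 0. In the class of middle GC content and long exons, which holds *Efnb2*, the median was 0.32. For high GC content and long exons, the class of *Ephb1*, *Ephb2* and *Ephb3*, it was 0.06. *Ephb6* (-0.40) and *Ephb2* (0.33) lay further from 0 than the medians of their own classes, as did *Ephb1* (0.18) and *Ephb3* (0.14). *Ephb4* (-0.10), *Efnb1* (-0.10) and *Efnb3* (-0.15) lay nearer 0 than theirs, and *Efnb2* (0.31) lay at its class median.

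**Figure D4:**
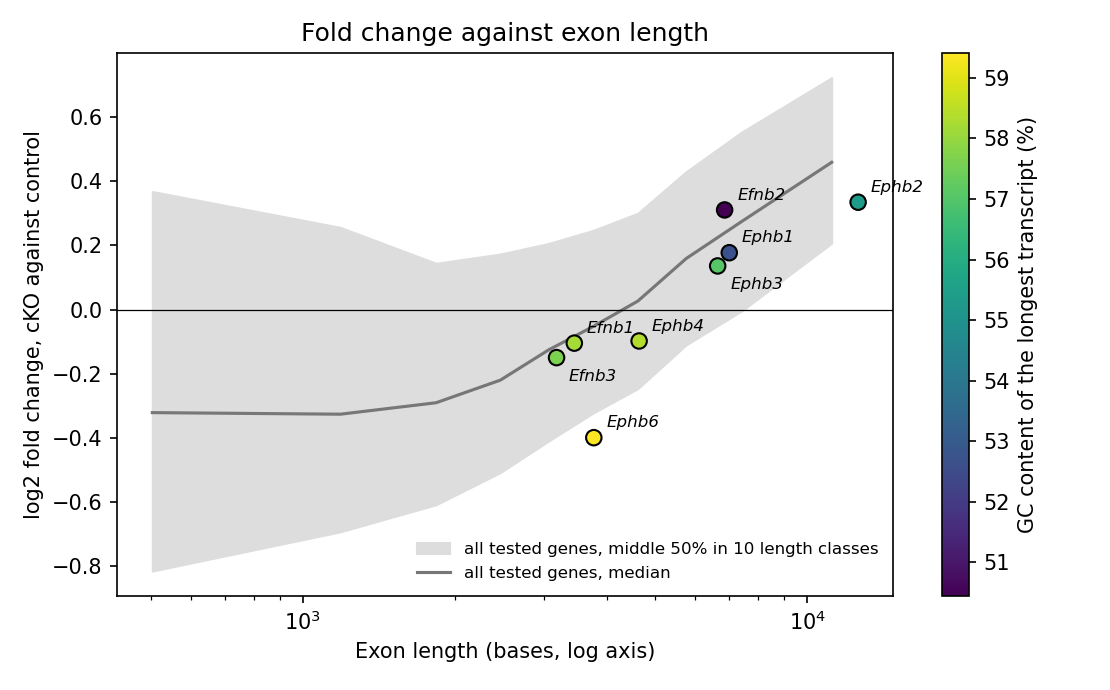
Log2 fold change, cKO against control, over exon length in bases on a log axis. Circles are the 8 genes, coloured by GC content, the line is the median of all tested genes in 10 length classes and the band their middle 50%. The 4 longest genes lie above 0 and the 4 shortest below it, and *Ephb6* lies below the band.

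A smooth trend of GC content and exon length was then removed from each library. After this, *Ephb6* stood at -0.11 (95% interval -0.34 to 0.13), *Ephb2* at 0.09 (-0.16 to 0.33), *Efnb2* at 0.08 (-0.20 to 0.37) and *Ephb1* at 0.02 (-0.27 to 0.32). *Ephb4* (0.12), *Efnb1* (0.22) and *Efnb3* (0.18) turned from below to above 0, and *Ephb3* was at 0.19. Corrected in this way, 0 of 8 genes passed in edgeR, against 0.00459% of all genes, and 0 of 8 had an unadjusted p under 0.05, against 26.3% of all genes.

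The trend alone put *Ephb6* lower by 0.36 and 0.33 on the log2 scale in B7 and B9, and higher by 0.11 to 0.28 in the controls. For *Ephb6* the span over all 7 mice narrowed from 0.81 to 0.32 with the correction and for *Ephb2* from 0.57 to 0.29, but for *Ephb1* only from 0.55 to 0.49. For *Efnb3* it widened from 0.33 to 0.48 and for *Ephb3* from 0.38 to 0.40. Relative to the control mean, B7 and B9 still lay above every control in *Ephb1* (0.19 and 0.24) and *Ephb2* (0.23 and 0.21). In *Ephb6* both still lay below every control (-0.135 and -0.253, lowest control -0.1). After the correction they also lay above every control in *Ephb3* (0.31 and 0.159), *Efnb1* (0.323 and 0.316) and *Efnb3* (0.389 and 0.293).

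With the correction and without B8, 0 of 8 genes passed in edgeR, against 33.6% of all genes, and *Ephb3* (0.27, adjusted p = 0.0742) and *Efnb3* (0.26, adjusted p = 0.0628) came nearest. With the correction and the P2 mice alone, 1 of 8 passed, against 33.7% of all genes. That gene was *Efnb3*, higher by 0.34 (adjusted p = 0.0184), although it had been lower without the correction. Whether the trend is technical or part of the biology of these mice was not tested.

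**Figure D5:**
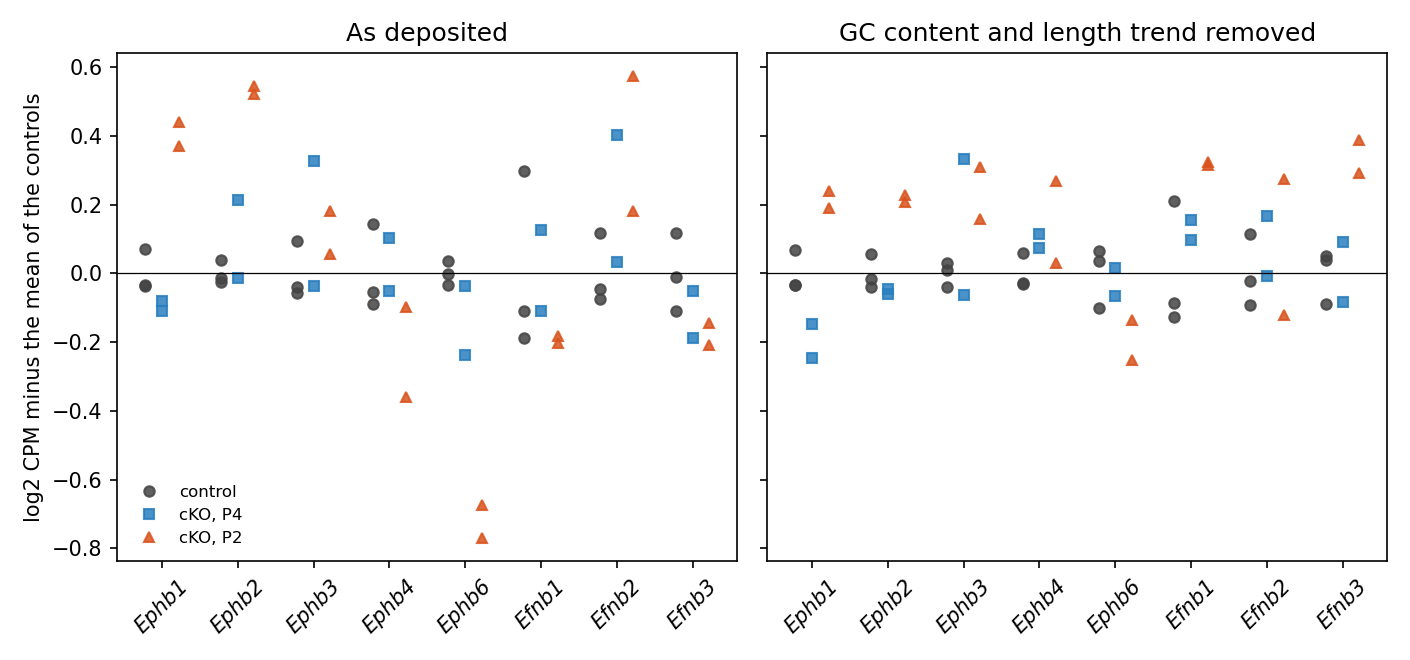
Log2 CPM of each gene minus the mean of the 3 controls, in each library, as deposited on the left and after removal of the trend of GC content and exon length on the right, with the same symbols for controls, P4 cKO and P2 cKO mice. *Ephb6* spans 0.81 on the left and 0.32 on the right, where both P2 mice stay below the controls. Both P2 mice stay above the controls in *Ephb1* and *Ephb2*, and on the right they also lie above them in *Ephb3*, *Efnb1* and *Efnb3*.

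The other genes of the pathway were counted in lists by role. None passed in edgeR with all mice, so DESeq2 and the fit without B8 are given, where 7.41% of the genes with an adjusted p passed as higher and 3.04% as lower in DESeq2, and 23.7% and 23.1% without B8. Of 30 genes of forward signalling, 5 were higher and 0 lower in DESeq2, and 16 were higher and 6 lower without B8, with a median log2 fold change of 0.29. Of 17 genes of reverse signalling, 2 were higher and 0 lower in DESeq2 and 7 higher and 3 lower without B8, with a median of 0.17.

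The genes with the highest and the lowest fold change of each list are given by name. *Kalrn*, an exchange factor that acts downstream of EphB receptors in dendritic spines, had 48.2 to 58.8 CPM in the controls and 135, 149, 58.5 and 135 CPM in B1, B7, B8 and B9 (log2 fold change 1.12, edgeR adjusted p = 0.138, DESeq2 adjusted p = 0.0132). *Cfl1*, which encodes the actin-severing protein cofilin, had 918 to 1219 CPM and 592, 604, 967 and 660 CPM (-0.55, edgeR adjusted p = 0.138, DESeq2 adjusted p = 0.073). B8 alone of the cKO mice lay within the control range in both genes. Without B8 the fold change was 1.34 for *Kalrn* and -0.74 for *Cfl1*, values of genes chosen as extremes in these same libraries.

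For reverse signalling the extremes were *Dock1*, a Rac activator (0.88, DESeq2 adjusted p = 0.0274, 1.07 without B8), and *Dvl2*, a Dishevelled protein (-0.27, DESeq2 adjusted p = 0.245, -0.34 without B8). Of 14 genes of shedding, dephosphorylation and turnover, 2 were higher and 1 lower in DESeq2 and 4 higher and 2 lower without B8, around a median of 0.03. Its extremes were *Cbl*, a ubiquitin ligase (0.90, DESeq2 adjusted p = 0.0344, 1.11 without B8), and *Psenen*, a subunit of gamma-secretase (-1.03, DESeq2 adjusted p = 0.0233, -1.28 without B8). With the correction for GC content and length and without B8, 14.3% of all genes passed as higher and 19.4% as lower. In that fit 4 forward signalling genes were higher and 6 lower, 5 reverse signalling genes were higher and 2 lower, and 4 genes of the turnover list were higher and 2 lower.

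Of 14 genes of the EphA and ephrin-A system, 1 was higher and 2 lower in DESeq2 and 4 higher and 4 lower without B8. *Epha6* (2.45 to 5.31 CPM in the controls and 4.56 to 14.4 CPM in the cKO mice, 1.30, DESeq2 adjusted p = 0.0257, 1.55 without B8) and *Efna2* (90.5 to 112 and 56.2 to 82.6 CPM, -0.64, DESeq2 adjusted p = 0.0257, -0.77 without B8) were its extremes. Of 10 other cues of the mediolateral axis, 2 were higher and 0 lower in DESeq2 and 5 higher and 1 lower without B8. *Chl1*, a cell adhesion molecule of the L1 family, stood at 514 to 578 CPM in the controls and 1028, 1357, 515 and 1135 CPM in B1, B7, B8 and B9 (0.90, DESeq2 adjusted p = 0.0347, 1.11 without B8), and *Wnt3*, a ligand graded across the colliculus, at 23.2 to 26.5 and 16.6 to 21.2 CPM (-0.42, DESeq2 adjusted p = 0.063, -0.50 without B8). Under the correction and without B8, 1 gene of the EphA and ephrin-A system was higher and 4 lower, and 2 other mediolateral cues were higher and 0 lower.

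Finally, likeness of pattern was measured as Pearson's r of log2 CPM over the 7 libraries among 10268 genes, as a description, since all points share the same libraries and depth. *Ephb2* and *Ephb6* were close to mirror images (r = -0.99), and *Ephb1* followed *Ephb2* (r = 0.881). The patterns most like *Ephb2* were those of *Ddx10* (r = 0.999) and *Arcn1* (r = 0.999), and 2601 genes exceeded an r of 0.9 with it. For *Ephb6* the nearest were *Isoc2a* (r = 0.995) and *Pomgnt1* (r = 0.995), with 1510 genes above 0.9.

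*Ephb1* was nearest to *Cep63* (r = 0.995) and *Lzts1* (r = 0.994), with 422 genes above 0.9. *Efnb2* was nearest to *Gbf1* (r = 0.991) and *Btbd8* (r = 0.979), and *Efnb3* to *Ywhab* (r = 0.991) and *Hs1bp3* (r = 0.987). *Ephb3* (*Bahd1*, r = 0.955, and *Ccnd2*, r = 0.941), *Ephb4* (*Ppp1r12c*, r = 0.978, and *Grk6*, r = 0.971) and *Efnb1* (*Zer1*, r = 0.961) had patterns shared by fewer genes, with 14, 66 and 26 above 0.9. The pattern of *Ephb2* and *Ephb6* over the mice was thus a common one in these libraries.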

How the data were processed

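Dorsal midbrain RNA of 3 control and 4 cKO samples was sequenced as stranded poly(A) libraries. The authors aligned the reads with TopHat2 and Bowtie2 to GRCm38 and counted them per gene with HTSeq, and the deposited values are raw counts. The strand setting of HTSeq is not given in the sources used here. Gene symbols, positions and exon lengths came from a GENCODE annotation of the same build. Genes were filtered with filterByExpr (minimum count 10), scaled by TMM and tested with the quasi-likelihood test of edgeR 4.0.16, with Benjamini-Hochberg adjustment over all genes tested. DESeq2 1.42.0, limma 3.58.1 (voom with sample quality weights), other scalings and filters, age as a covariate, subsets of mice, leave-one-out and a per-library trend of GC content and exon length (mgcv 1.9.3) were alternatives. log2 CPM used a prior count of 2. RPKM was TMM-scaled CPM per kilobase of exon union. The fits were tested on simulated data. Single genes were also tested by an exact two-sided permutation over the 35 assignments of 7 samples. Same-group libraries differed beyond sampling noise (chi-square per degree of freedom 7.86 to 254.7). Each library came from a separate animal per the study, and p-values measure the spread between these animals. The 8 genes, the gene lists and the tests were chosen with earlier results of these data known. The genes named were the 8 members, the pathway list genes with the highest and lowest fold change at a mean of at least 1 CPM, the 2 protein-coding genes (mean of at least 10 CPM) most like each member, and *Pou4f2*. Some genes under these rules are not reported here. Protein sequences were not analysed here.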

Additional observations from a re-analysis of the deposited data

Results flagged for a closer look

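*Ephb1* deviated in opposite directions in the cKO mice of different age: both P2 mice lay above the mean of the controls and both P4 mice below it. The P2 minus P4 log2 difference was 0.50 (SE 0.12) in the contrast of both cKO groups, with an unadjusted p = 0.00253 that did not pass over all genes (edgeR adjusted p = 0.1). The P2 mice exceed the P4 mice in 2 of 2 cases, depth was greatest in the P2 libraries, and the part of depth or age was not tested. In 44 results of the 4 cKO mice (levels of the 8 genes, of *Pou4f2* and of the 10 named pathway genes, pool shares and ratios, sums of marker lists, and the leading principal axis), a single mouse stood far from the other 3 in *Kalrn*. There B8 had 58.5 CPM against 135 to 149 CPM, a gap of 0.84 of the whole range, above the 95% critical value of Dixon's test for 4 values. Chance flags about 1 in 20 groups, so 1 in 44 is not more than chance gives, and with 4 values few patterns can reach that limit.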

How the results depend on the processing

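No paired analysis was possible because no replicate number occurs in both groups. DESeq2, RLE scaling, both filters and age as a covariate kept the sign of all 8 fold changes and called 0 of the 8 genes. Among all genes DESeq2 passed 10.4%, whereas RLE scaling, each filter and age as a covariate each passed only 1 gene. With age as a covariate *Ephb1* fell to 0.0014 (SE 0.11), which has no clear direction. The count called of 8 was 3 with voom weights (48.5% of all genes), 4 with the P2 cKO mice alone (46.9%), 1 with these and the correction for GC content and length (33.7%), and 0 to 3 when each mouse was left out (3 without B8, 46.7%). Voom called *Ephb2* (0.42), *Ephb6* (-0.56) and *Efnb2* (0.37). The P2 mice alone called these at 0.51, -0.74 and 0.37, and *Ephb1* at 0.39. Leaving out each mouse gave 0.27 to 0.43 for *Ephb2*, -0.55 to -0.28 for *Ephb6*, 0.22 to 0.39 for *Efnb2* and -0.203 to 0.0615 for *Efnb1*, which turned without A4. The others moved by over 1.5 times, to 0.0875 without B9 for *Ephb1*, 0.0662 without B1 for *Ephb3*, -0.006 without B7 for *Ephb4* and -0.089 without A4 for *Efnb3*. With the P4 cKO mice alone *Ephb1* (-0.0906), *Ephb4* (0.0307) and *Efnb1* (0.0039) turned, and with P4 mice of both genotypes *Ephb1* (-0.058), *Ephb4* (0.10) and *Efnb1* (0.16). The correction, with all mice, without B8 and with the P2 mice, gave 0.12, 0.14 and 0.15 for *Ephb4*, 0.22, 0.26 and 0.31 for *Efnb1*, and 0.18, 0.26 and 0.34 for *Efnb3*. The median of the 8 genes was -0.0264 with age as a covariate, -0.048 with the P2 mice, 0.10 with P4 mice only, 0.11, 0.14 and 0.22 under the correction in the same order, and -0.0214 to 0.1233 when each mouse was left out. The causes were not tested. Of the 7 neighbouring pairs of levels 4 passed with all mice and 0 with any mouse left out, where the number of mice limits the exact p, so this says nothing about stability. Corrections that combine the trend with a subset of mice, and the contrast of P2 with P4 cKO mice, were chosen after seeing the data.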
